A study of Homo sapiens with 6 samples.

Results

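The genes described here are 45 genes of autophagy and the lysosome in SKOV3 cells, an established line from a human ovarian cancer with an amplified ERBB2 gene. They were taken by symbol from the deposited gene table, 45 of 61552 listed genes. The treated cells had received 1 µM fenbendazole, a tubulin-binding benzimidazole used in animals against worms, and the control cells DMSO, each for 48 h. Poly(A) RNA of each group was sequenced in 3 libraries, named here by the numbers in their titles, fenbendazole 7, 8 and 9 and DMSO 10, 11 and 12. Separate cultures are not stated for the replicates in the labels. The p-values therefore reflect only how these libraries spread, and that spread may be technical. In bulk samples, fewer cells of a kind and less RNA per cell cannot be told apart.

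Libraries held 13170775 to 22128930 counts. ERBB2 had 4224 to 4632 CPM (counts per 1e6 counts) with fenbendazole and 7806 to 15880 CPM with DMSO. PAX8, an ovarian carcinoma marker, was detected in every library, at 201 to 219 CPM with fenbendazole and 237 to 342 CPM with DMSO. MUC1 had 15.6 to 18.9 CPM with fenbendazole and 30.6 to 45.1 CPM with DMSO. KRT7 went the other way, with 225 to 231 CPM with fenbendazole and 71.3 to 182.5 CPM with DMSO. EPCAM, KRT8 and KRT18 overlapped between the groups. The summed level of 6 leukocyte markers was at most 1.8 CPM with fenbendazole and 1.04 CPM with DMSO. A sum of 6 fibroblast and endothelial markers, most of it COL1A1, was 53 to 56.7 CPM with fenbendazole and 49.6 to 94.3 CPM with DMSO. DMSO 11 stood apart from the other 5 libraries. When limma weighted libraries by their quality, its weight was 0.074, against 0.964 to 2.36 for the others. Results are therefore given with and without it, and a fit that drops the most deviant control may understate the spread between controls.

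Autophagy encloses cytoplasm in a membrane that closes into an autophagosome and delivers it to the lysosome. The ULK kinase complex starts the process, a lipid kinase complex with Beclin 1 marks the site, and a conjugation system attaches the ubiquitin-like ATG8 proteins to the growing membrane. Receptors such as SQSTM1 bind ubiquitinated cargo and ATG8 proteins together. Lysosomes break the cargo down with acid proteases and glycosidases. TFEB, TFE3 and MITF are related transcription factors that bind E-box sequences, called CLEAR elements, in promoters of many lysosomal and autophagy genes, and the kinase mTORC1 holds TFEB in the cytoplasm when nutrients are plentiful. Microtubules, the polymer of the protein that fenbendazole binds, carry autophagosomes and lysosomes through the cell.

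Promoters of 41 of the 45 genes were found in a RefSeq table for GRCh38.p14, in 52 windows that each run from 250 bases before to 50 bases after an annotated start. LAMP2, CTSB, HEXA and PSAP had no entry. The E-box CACGTG, searched on both strands, was in windows of 8 genes, namely ATG14, ATG3, LAMP1, MCOLN1, CTSA, CTSD, GAA and NEU1, and in 7.26% of all 35116 windows. The longer palindrome TCACGTGA, which contains that E-box and is the core of a CLEAR element, was in windows of 5 of them and in 0.98% of all windows. For each of the 8 genes 30 bases around a match are printed here, since E-boxes of this kind are what the TFEB family is known to bind. Capitals mark TCACGTGA or, where that was absent, CACGTG.
LAMP1, chr13:113297199-113297228, plus strand: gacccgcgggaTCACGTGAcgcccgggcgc
MCOLN1, chr19:7522598-7522627, plus strand: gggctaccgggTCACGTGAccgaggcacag
CTSA, chr20:45891298-45891327, plus strand: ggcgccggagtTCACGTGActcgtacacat
GAA, chr17:80101538-80101567, plus strand: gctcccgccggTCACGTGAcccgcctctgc
ATG3, chr3:112561940-112561969, minus strand: agagtctagtgTCACGTGAggccccggtgg
CTSD, chr11:1763957-1763986, minus strand: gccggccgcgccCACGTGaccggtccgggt
NEU1, chr6:31862930-31862959, minus strand: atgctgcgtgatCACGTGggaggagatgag
ATG14, chr14:55411834-55411863, minus strand: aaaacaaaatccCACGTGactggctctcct
A match is a run of letters and not evidence of binding.

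With fenbendazole, 3 of the 45 genes passed the threshold, a Benjamini-Hochberg adjusted p of 0.05 in edgeR's quasi-likelihood test over 17363 genes. ATG12, which encodes a ubiquitin-like protein of the conjugation system, and GLA, which encodes the lysosomal alpha-galactosidase A, rose 2.20-fold and 1.78-fold. GABARAP, an ATG8 gene, fell to 47.2 ± 3.54 CPM with fenbendazole, against 76 ± 9.97 CPM with DMSO (SD, n = 3 each). The share of genes called was 6.67% among the 45 and 4.03% among all genes tested. For rises it was 4.44% (2 genes) against 3.11% of all genes, and for falls 2.22% (1 gene) against 0.921%. Over all genes these were 540 rises and 160 falls, and 455 and 231 with upper-quartile scaling. These shares are of a size with the background.

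The median log2 fold change of the 45 genes was -0.20, and that of all genes tested was -0.058. Groups did not overlap in 19 of the 45 genes, that is 42.2% against 32.6% of all genes. Of these, 7 were higher with fenbendazole (15.6% against 17.0%) and 12 lower (26.7% against 15.5%). Without DMSO 11, 6 genes rose and 9 fell, 33.3% of the 45 against 22.3% of all 17689 genes tested in that fit. Rises were 13.3% against 13.1%, and falls 20% against 9.23%. The median of the 45 genes was then 0.0066, against -0.0073 for all genes. The 3 genes called with all libraries were among these 15. With offsets for GC content and transcript length, 5 genes rose and 11 fell, against backgrounds of 11.1% and 9.28%, and 20.4% of all genes were called.

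**Figure D1:**
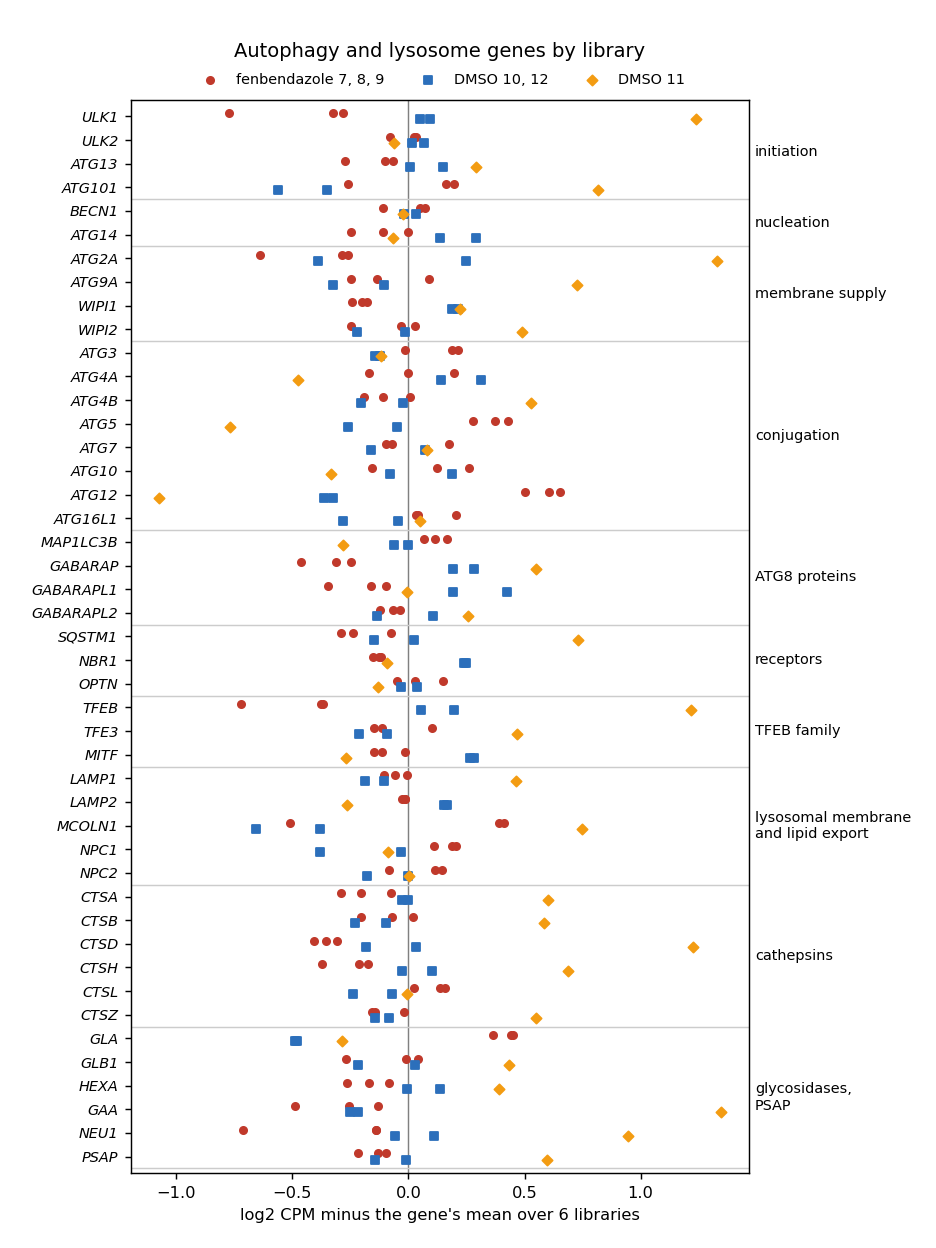
Each row is a gene, grouped by role, and each point is a library, with fenbendazole as red circles, DMSO 10 and 12 as blue squares and DMSO 11 as orange diamonds. The horizontal axis is log2 CPM minus the gene's mean over the 6 libraries. DMSO 11 was the highest of the 6 libraries in 25 genes and the lowest in 8.

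The place of DMSO 11 among the controls differed from gene to gene. It was the highest of the 6 libraries in 25 of the 45 genes and the lowest in 8, against 33.8% and 33.3% of all genes tested. Its level relative to the other 2 controls went with the GC content of the gene's longest transcript. Over the 45 genes Pearson's r was 0.898 and Spearman's rho 0.895. Over 16975 tested genes with a value they were 0.765 and 0.799, there with a small count added before taking log2. These are correlations across genes of the same 3 libraries, and genes are not replicates. In GAA (64.1% GC) DMSO 11 was above the mean of the other controls by 1.58 on the log2 scale, in CTSD (64%) by 1.3 and in ULK1 (64.2%) by 1.17. In ATG12 (37.5%) the difference was -0.73 and in LAMP2 (37.7%) -0.42. The sign of the log2 fold change turned without DMSO 11 in 9 genes, of which ATG101 passed the threshold in that fit. The other 8 were ATG9A, WIPI2, ATG4B, TFE3, LAMP1, CTSB, CTSZ and GLB1. They passed it neither with all libraries nor without DMSO 11. What set DMSO 11 apart was not tested.

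**Figure D2:**
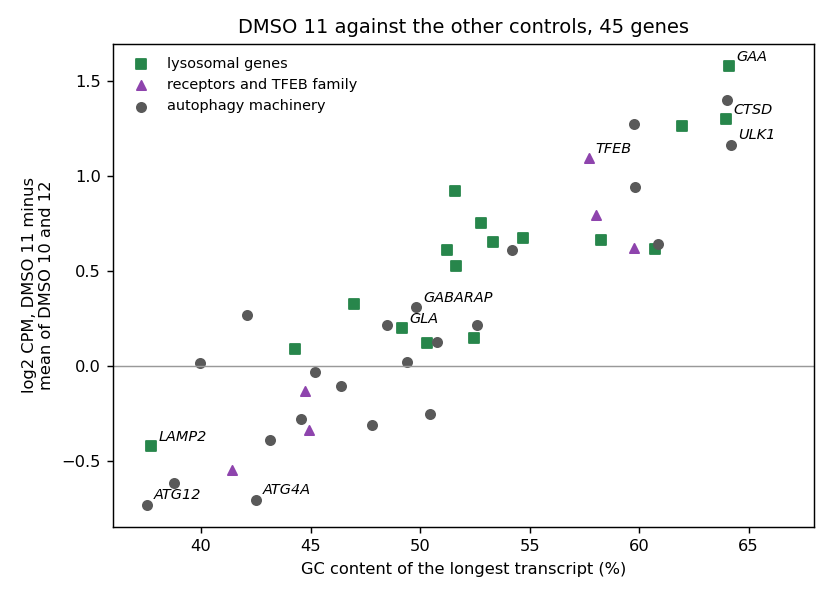
Each point is one of the 45 genes, with lysosomal genes as green squares, receptors and the TFEB family as purple triangles and autophagy machinery as grey circles. The horizontal axis is the GC content of the longest transcript in percent, and the vertical axis is log2 CPM in DMSO 11 minus the mean of DMSO 10 and 12. The points climb from -0.73 in ATG12 to 1.58 in GAA.

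Of the 4 genes of the ULK complex, 0 passed the threshold with all libraries in edgeR, and 1 (ULK1) had an unadjusted p under 0.05. The share of all genes with an unadjusted p under 0.05 was not taken. Such counts, here and below, therefore have no background beside them. DESeq2 called ULK1 and limma-voom 0, and over all genes they called 4.34% and 4.05%. ULK1, the kinase that starts autophagy, had 53.1, 54.7 and 38.9 CPM in fenbendazole 7, 8 and 9, against 70.9, 157 and 68.7 CPM in DMSO 10, 11 and 12. Groups did not overlap, and DMSO 11 was far above every other library. The log2 fold change of ULK1 was -1.02 ± 0.337 (SE, adjusted p = 0.147). Without DMSO 11 it fell by 0.51 on the log2 scale, and over 17 other settings its adjusted p ranged from 0.0147 to 0.647. ATG101, a subunit that stabilises ATG13, had 35.2, 35.9 and 26.2 CPM in fenbendazole 7, 8 and 9, against 24.6, 55.2 and 21.3 CPM in DMSO 10, 11 and 12. Its control levels lay on both sides of the treated ones, and the log2 fold change was -0.059 with all libraries and 0.50, a call, without DMSO 11 (range of adjusted p over other settings 0.0276 to 1). ULK2, the second kinase of the pair, had a log2 fold change of -0.014 ± 0.129 and ATG13, the scaffold of the complex, of -0.30 ± 0.137, with adjusted p of 0.958 and 0.257.

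The lipid kinase complex and the genes of membrane supply gave 0 calls among 6 with all libraries in edgeR, 1 unadjusted p under 0.05 (WIPI1), and 0 calls in DESeq2 and limma-voom. BECN1, which encodes Beclin 1, had 141, 143 and 126 CPM in fenbendazole 7, 8 and 9, against 139, 134 and 134 CPM in DMSO 10, 11 and 12. These values overlapped, and the log2 fold change was 0.0097 ± 0.115 (SE, adjusted p = 0.968). ATG14, the subunit that directs Beclin 1 to autophagy, had a log2 fold change of -0.24 ± 0.156. WIPI1, which binds the lipid product of that kinase, stood at 15.4, 15 and 15.7 CPM with fenbendazole, against 20.6, 20.7 and 20.2 CPM with DMSO. Its groups did not overlap, and the log2 fold change was -0.42 ± 0.153 (adjusted p = 0.181). Without DMSO 11, ATG14 and WIPI1 passed the threshold at -0.32 and -0.40, with ranges of adjusted p over other settings of 0.016 to 1 and 0.0234 to 1. ATG2A, which transfers lipids, had a log2 fold change of -0.96 ± 0.413, and of -0.35 without DMSO 11. ATG9A, a scramblase of the vesicles that seed the membrane, and WIPI2, which recruits the conjugation machinery, had log2 fold changes of -0.27 ± 0.279 and -0.20 ± 0.212.

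Conjugation genes held the largest rise among the 45. ATG12 (ENSG00000145782, chromosome 5, 115828200 to 115841837, GRCh38) had 206, 185 and 199 CPM in fenbendazole 7, 8 and 9, against 102, 62.1 and 104 CPM in DMSO 10, 11 and 12. Each treated library was above each control, and DMSO 11 was the lowest control. Means were 197 ± 10.6 CPM with fenbendazole and 89.4 ± 23.7 CPM with DMSO (SD, n = 3 each), and the log2 fold change was 1.14 ± 0.207 (SE, adjusted p = 0.0265). The call was lost without fenbendazole 7, 8 and 9 (0.135, 0.107 and 0.139) and with DMSO 10 left out (0.0772). It was also lost in limma on log2 of FPKM plus 1 or 0.1 (0.0535 and 0.0544) and in edgeR's test against a 1.5-fold change (0.177). Without DMSO 11 the rise was 0.94 with a smaller error (0.94 ± 0.0717), and over other settings the adjusted p ranged from 5.27e-07 to 0.177.

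AP3S1, which encodes a subunit of the AP-3 adaptor that sorts proteins to lysosomes, is the neighbour of ATG12 on the opposite strand. Their deposited spans overlap by 246 bases, chr5:115841592-115841837. AP3S1 had 282, 272 and 276 CPM in fenbendazole 7, 8 and 9, against 170.2, 123 and 187 CPM in DMSO 10, 11 and 12. It rose as well, by 0.79 ± 0.169 (SE, adjusted p = 0.048), and by 0.64 ± 0.0668 without DMSO 11. Over other settings the adjusted p ranged from 7.54e-06 to 0.596, and AP3S1 passed the threshold in 11 of 17 of them. Among others, the call was lost without DMSO 10 (0.124) and without fenbendazole 7, 8 and 9 (0.204, 0.179 and 0.206). Whether strand was kept in counting is not given in the sources used here, so reads in the overlap cannot be assigned with certainty. The ATG12 window held no CACGTG.

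ATG5, the protein to which ATG12 is joined, had 74.7, 67.1 and 71.7 CPM in fenbendazole 7, 8 and 9, against 46.3, 32.6 and 53.6 CPM in DMSO 10, 11 and 12. Treated libraries were all above the controls. The log2 fold change was 0.69 ± 0.196 (SE), and it did not pass the threshold (adjusted p = 0.103). Without DMSO 11, where the lowest control is gone, ATG5 rose by 0.52 ± 0.0969, and over other settings the adjusted p ranged from 0.000625 to 0.917. ATG16L1, which completes the complex with ATG12 and ATG5, had a log2 fold change of 0.18 ± 0.145. ATG3, the enzyme that passes ATG8 proteins to lipid, stood at 72.2, 70.9 and 61.5 CPM with fenbendazole, against 57, 57.3 and 56.2 CPM with DMSO, without overlap, and had 0.26 ± 0.127 as its log2 fold change (adjusted p = 0.278). ATG7, the activating enzyme, had a log2 fold change of 0.0072, ATG10, which attaches ATG12 to ATG5, of 0.15, and the ATG8 proteases ATG4A and ATG4B of -0.010 and -0.23. ATG4A and ATG10 were low, at 6.24 and 6.75 CPM with fenbendazole and 6.3 and 6.11 CPM with DMSO.

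**Figure D3:**
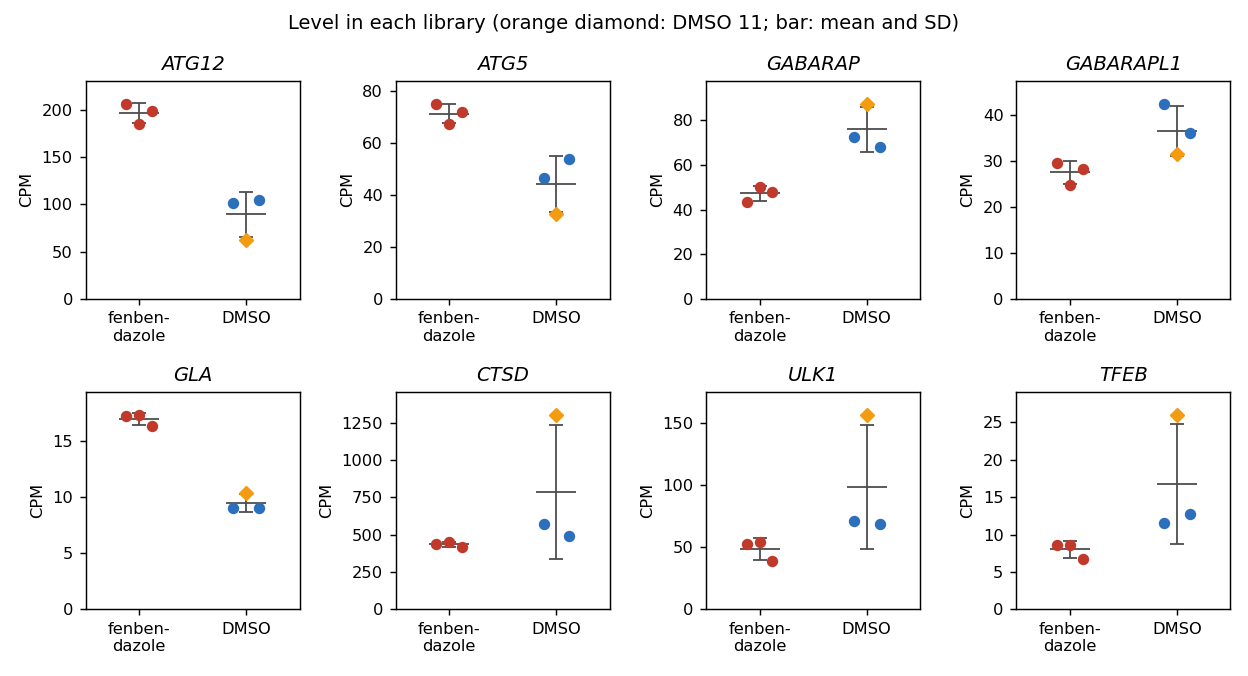
Each panel gives the CPM of a gene in every library, fenbendazole on the left and DMSO on the right, with the mean and SD as bars and DMSO 11 as an orange diamond. Vertical axes start at 0. ATG12, ATG5 and GLA were higher in each treated library than in each control, and in CTSD, ULK1 and TFEB DMSO 11 lay far above the other controls.

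Of the 4 ATG8 genes, GABARAP alone was called with all libraries. GABARAP (ENSG00000170296, chromosome 17, 7240008 to 7242449) had 43.4, 50.3 and 48.1 CPM in fenbendazole 7, 8 and 9, against 72.6, 87.2 and 68.2 CPM in DMSO 10, 11 and 12. Each treated library was below each control. Its log2 fold change was -0.69 ± 0.148 (SE, adjusted p = 0.048), and over other settings the adjusted p ranged from 0.000234 to 0.839. The call was lost without DMSO 10 (0.124), without DMSO 12 (0.0632) and on leaving out fenbendazole 7, 8 or 9 (0.264, 0.194 and 0.228). GABARAP also lost it with no low-count filter (0.0631), in limma-voom (0.0524) and in edgeR's test against a 1.5-fold change (0.839). Without DMSO 11 it fell by 0.57 on the log2 scale. GABARAPL1, a close paralog, had 29.5, 24.8 and 28.1 CPM in fenbendazole 7, 8 and 9, against 42.2, 31.4 and 36 CPM in DMSO 10, 11 and 12, also without overlap, and had -0.41 ± 0.171 as its log2 fold change (adjusted p = 0.221). In the fit without DMSO 11 it fell by 0.50 on the log2 scale (range of adjusted p over other settings 0.00282 to 1).

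MAP1LC3B, which encodes LC3B, the usual marker protein of autophagosomes, had 219, 227 and 212 CPM in fenbendazole 7, 8 and 9, against 202, 166 and 194 CPM in DMSO 10, 11 and 12. Here the treated libraries were the higher ones, without overlap, but the log2 fold change of 0.23 ± 0.123 (SE) did not pass the threshold (adjusted p = 0.324, range over other settings 0.104 to 1). GABARAPL2 had a log2 fold change of -0.16 ± 0.145. On the deposited FPKM scale, which divides by length, MAP1LC3B made up 50.9%, 50.6% and 48.8% of the summed level of the 4 genes in fenbendazole 7, 8 and 9, against 41.5%, 34.5% and 40.5% in DMSO 10, 11 and 12. GABARAP made up 16.8%, 18.8% and 18% with fenbendazole, against 25.1%, 29.2% and 24.4% with DMSO. Both shares were apart between groups, in opposite directions, and those of GABARAPL1 and GABARAPL2 overlapped. Shares of the same sum are tied to each other, so a lower GABARAP level by itself raises the MAP1LC3B share. These genes have close paralogs, so reads may be shared between them.

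Of the 3 receptors, 0 passed the threshold with all libraries in edgeR, DESeq2 or limma-voom, and 0 had an unadjusted p under 0.05 in edgeR. SQSTM1, which encodes p62, had 261, 293 and 252 CPM in fenbendazole 7, 8 and 9, against 314, 513 and 278 CPM in DMSO 10, 11 and 12. Groups overlapped and DMSO 11 was the highest library. Its log2 fold change was -0.46 ± 0.231 (SE, adjusted p = 0.297), and -0.13 without DMSO 11. NBR1, a receptor with the same kind of ubiquitin and ATG8 binding domains, had 229, 235 and 233 CPM in fenbendazole 7, 8 and 9, against 301, 239 and 303 CPM in DMSO 10, 11 and 12. The treated libraries were all below the controls, and DMSO 11 was the nearest control. NBR1 had -0.27 ± 0.131 as its log2 fold change (adjusted p = 0.273), and without DMSO 11 it fell by 0.37 with an error of 0.0592 (range of adjusted p over other settings 0.000508 to 1). OPTN, which encodes optineurin, a receptor for bacteria and damaged mitochondria, had a log2 fold change of 0.087 ± 0.122.

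The TFEB family gave 0 calls among 3 with all libraries in edgeR, where TFEB had an unadjusted p under 0.05, and DESeq2 called TFEB and limma-voom 0. TFEB had 8.61, 8.66 and 6.77 CPM in fenbendazole 7, 8 and 9, against 11.6, 26 and 12.8 CPM in DMSO 10, 11 and 12. Groups did not overlap, and DMSO 11 was again the far control. The log2 fold change of TFEB was -1.07 ± 0.338 (SE, adjusted p = 0.131), and without DMSO 11 it fell by 0.60 with an error of 0.189 (range of adjusted p over other settings 0.0117 to 0.582). MITF, better known for its role in pigment cells, had 43.4, 47.8 and 44.5 CPM in fenbendazole 7, 8 and 9, against 58.7, 40.0 and 57.9 CPM in DMSO 10, 11 and 12. Here DMSO 11 was the lowest of the 6 libraries. MITF had a log2 fold change of -0.21 ± 0.18, and without DMSO 11 it fell by 0.36 (range of adjusted p over other settings 0.0129 to 1). TFE3 had 56.6, 65.7 and 55.4 CPM in fenbendazole 7, 8 and 9, against 57.6, 84.9 and 53 CPM in DMSO 10, 11 and 12, and its log2 fold change of -0.14 ± 0.202 turned to 0.11 without DMSO 11. On the FPKM scale TFE3 had the highest level of the 3, at 16.2 ± 1.61 FPKM with fenbendazole and 18.7 ± 5.22 FPKM with DMSO (SD, n = 3 each). MITF followed with 8.48 ± 0.384 FPKM with fenbendazole and 10.2 ± 1.3 FPKM with DMSO (SD, n = 3 each), and TFEB was lowest with 2.8 ± 0.183 FPKM with fenbendazole and 6.42 ± 3.34 FPKM with DMSO (SD, n = 3 each).

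The 8 genes with CACGTG in their windows, whose sites are printed above, had a median log2 fold change of -0.33 with all libraries and -0.10 without DMSO 11. Of these, 0 passed the threshold with all libraries in edgeR, DESeq2 or limma-voom, CTSD had an unadjusted p under 0.05 in edgeR, and without DMSO 11 CTSD and ATG14 fell (25% of the 8, against 9.23% of all genes) and 0 rose (against 13.1%). DMSO 11 was the highest of the 6 libraries in 6 of the 8, against 33.8% of all genes.

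Genes of the lysosomal membrane and of lipid export gave 0 calls among 5 with all libraries in edgeR, DESeq2 and limma-voom, and 1 unadjusted p under 0.05 in edgeR (NPC1). LAMP1, an abundant glycoprotein of that membrane, had 181, 187 and 175 CPM in fenbendazole 7, 8 and 9, against 174, 259 and 165 CPM in DMSO 10, 11 and 12. DMSO 11 alone lay above the treated range, and the log2 fold change of -0.14 ± 0.186 (SE, adjusted p = 0.689) turned to 0.10 without it. LAMP2, which serves in fusion and in chaperone-mediated autophagy, had a log2 fold change of -0.050 ± 0.144, and it fell by 0.36 on the log2 scale with GC and length offsets. NPC1, which carries cholesterol out of the lysosome, had 97.1, 103 and 102 CPM in fenbendazole 7, 8 and 9, against 87.9, 84.7 and 69 CPM in DMSO 10, 11 and 12. Treated libraries were all above the controls. The log2 fold change was 0.32 ± 0.136 (adjusted p = 0.225), and without DMSO 11 NPC1 rose by 0.37 (range of adjusted p over other settings 0.0123 to 1). NPC2, its soluble partner, had a log2 fold change of 0.12 ± 0.149. MCOLN1, a calcium channel of the lysosome, was low at 7.48, 7.36 and 3.95 CPM with fenbendazole, against 3.57, 9.43 and 4.31 CPM with DMSO, and had a log2 fold change of 0.11 ± 0.433.

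The cathepsins gave 0 calls among 6 with all libraries in edgeR, DESeq2 and limma-voom, and 2 unadjusted p under 0.05 in edgeR (CTSD and CTSH). CTSD, an aspartic protease, had 435, 449 and 419 CPM in fenbendazole 7, 8 and 9, against 569, 1300.5 and 490.2 CPM in DMSO 10, 11 and 12. Groups did not overlap, and DMSO 11 was far above every other library. The log2 fold change of CTSD was -0.86 ± 0.348 (SE, adjusted p = 0.214), and without DMSO 11 it fell by 0.28 (range of adjusted p over other settings 0.0104 to 0.868). CTSB, a cysteine protease, had 471, 502 and 429 CPM in fenbendazole 7, 8 and 9, against 462, 742 and 421 CPM in DMSO 10, 11 and 12, with overlap, and had a log2 fold change of -0.21 ± 0.22, or of 0.090 without DMSO 11. CTSL, another cysteine protease, had 114, 112 and 104 CPM in fenbendazole 7, 8 and 9, against 97.2, 102 and 86.7 CPM in DMSO 10, 11 and 12. Its treated libraries were all above the controls by a small margin. CTSL had 0.21 ± 0.123 as its log2 fold change (adjusted p = 0.362), and without DMSO 11 it rose by 0.26 (range of adjusted p over other settings 0.0304 to 1). CTSA, which protects beta-galactosidase and neuraminidase in a complex, CTSH and CTSZ had log2 fold changes of -0.41 ± 0.194, -0.54 ± 0.215 and -0.25 ± 0.198. None of the 3 was called in the main edgeR fit or in the same fit without DMSO 11. With all libraries CTSH was among the falls with GC and length offsets and in limma-voom with quality weights.

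GLA (ENSG00000102393, chromosome X, 101393273 to 101408012), which removes terminal galactose from glycolipids and is deficient in Fabry disease, rose. It had 17.2, 17.3 and 16.3 CPM in fenbendazole 7, 8 and 9, against 9.03, 10.4 and 9.07 CPM in DMSO 10, 11 and 12. Each treated library was well above each control, and DMSO 11 lay near the other controls. Means were 16.9 ± 0.553 CPM with fenbendazole and 9.5 ± 0.779 CPM with DMSO (SD, n = 3 each), and the log2 fold change was 0.83 ± 0.173 (SE, adjusted p = 0.0429). Over other settings the adjusted p ranged from 0.000432 to 0.509. The call was lost without DMSO 10 (0.132), without DMSO 12 (0.0897) and on leaving out fenbendazole 7, 8 or 9 (0.22, 0.212 and 0.188). It was also lost under upper-quartile scaling (0.0534), with no low-count filter (0.0958) and in edgeR's test against a 1.5-fold change (0.509). Limma on log2 of FPKM plus 1 or 0.1 lost it as well (0.137 and 0.138). Without DMSO 11 the rise was 0.91 ± 0.159. The deposited spans of RPL36A and the RPL36A-HNRNPH2 readthrough, on the opposite strand, overlap GLA, and reads in the overlap cannot be assigned with certainty. In all, 24 of the 45 genes overlap another gene with a mean of at least 10 counts.

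The GLA window held 3 matches to CCAAT, the box bound by the factor NF-Y, on either strand. Of all windows 34.6% held at least 1 and 3.26% held at least 3. Of the 41 genes with a window, 16 had at least 1 match. ATG9A, which was not called, also had at least 3. Among the 3 called genes, GLA alone had upstream bases in its window that lie outside annotated exons. Those 163 bases, -250 to -88 from the start, read on the minus strand, are shown because GLA was a called gene, with ATTGG, the reverse complement of CCAAT, in capitals (2 of the 3 matches).
GLA, chrX:101408013-101408175, minus strand: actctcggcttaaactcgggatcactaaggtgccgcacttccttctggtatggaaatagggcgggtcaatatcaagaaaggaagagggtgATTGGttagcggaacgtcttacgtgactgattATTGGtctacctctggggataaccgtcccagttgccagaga

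The other glycosidase genes and PSAP, the precursor of the saposins that present lipids to these enzymes, gave 0 calls in edgeR with all libraries and without DMSO 11, and 0 in DESeq2 and limma-voom. HEXA had an unadjusted p under 0.05 in edgeR. GAA, which breaks down glycogen, had 48.4, 52.8 and 41.3 CPM in fenbendazole 7, 8 and 9, against 48.6, 147 and 49.7 CPM in DMSO 10, 11 and 12. DMSO 11 was far above the remaining 5 libraries, which lay close together, and the log2 fold change of -0.79 ± 0.425 (SE, adjusted p = 0.324) was -0.043 without it. NEU1, a sialidase, had 14.6, 14.6 and 9.83 CPM in fenbendazole 7, 8 and 9, against 17.4, 31.1 and 15.5 CPM in DMSO 10, 11 and 12 and had a log2 fold change of -0.71 ± 0.312. HEXA, a subunit of beta-hexosaminidase, and GLB1, beta-galactosidase, had log2 fold changes of -0.36 ± 0.146 and -0.18 ± 0.202. PSAP had the highest level of the 45 genes on the FPKM scale, at 367 ± 22.1 FPKM with fenbendazole and 490.4 ± 156 FPKM with DMSO (SD, n = 3 each). Its log2 fold change on the count scale was -0.33 ± 0.199 (adjusted p = 0.369), and -0.062 without DMSO 11.

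**Figure D4:**
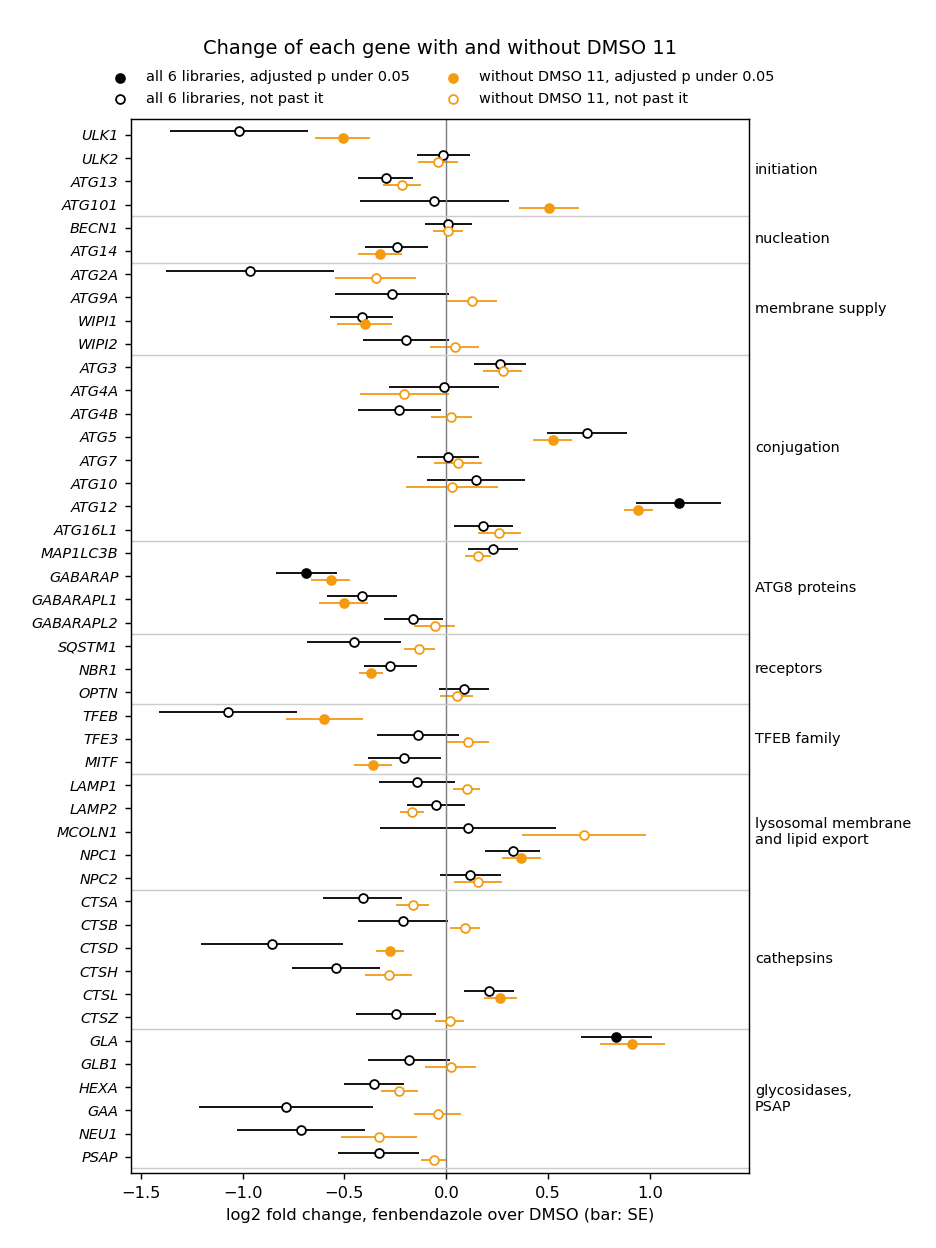
Each row is a gene and each point its log2 fold change of fenbendazole over DMSO with its SE, in black for all 6 libraries and in orange without DMSO 11. Filled points passed an adjusted p of 0.05. With all libraries the filled points are ATG12, GABARAP and GLA, and without DMSO 11 there are 15.

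Autophagy machinery had 1 rise and 1 fall among 22 genes (4.55% each), and the hydrolases and PSAP 1 rise (8.33%) and 0 falls among 12. The receptors and the TFEB family had 0 calls among 3 each. Of all genes tested 3.11% rose and 0.921% fell. Medians were -0.11 for the machinery, -0.34 for the hydrolases, -0.27 for the receptors and -0.21 for the TFEB family, against -0.058 for all genes tested. Without DMSO 11 the medians were 0.015 for the machinery, -0.053 for the hydrolases, -0.13 for the receptors and -0.36 for the TFEB family. In that fit the machinery had 3 rises (13.6%) and 5 falls (22.7%), and the hydrolases 2 rises (16.7%) and 1 fall (8.33%). The receptors had 0 rises and 1 fall, and the TFEB family 0 rises and 2 falls. Of all genes 13.1% rose and 9.23% fell in that fit, and 22.3% were called. DMSO 11 was above both other controls in all 12 hydrolase genes and in 13 of 22 genes of the machinery, a share not taken over all genes. It was the highest of the 6 libraries in 10 of the 12 and in 10 of the 22, against 33.8% of all genes. Limma-voom counts are given without quality weights unless stated. With them it called 8 of 22 genes of the machinery, 5 of 12 hydrolase genes, 1 of 3 receptors and 2 of 3 genes of the TFEB family, against 26.4% of all genes. No test of a difference between role groups was made.

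On the FPKM scale the highest levels after PSAP were those of CTSD, CTSB, SQSTM1 and MAP1LC3B. CTSD was at 188 ± 11.7 FPKM with fenbendazole and 359.6 ± 233 FPKM with DMSO (SD, n = 3 each). CTSB was at 125 ± 16.3 FPKM with fenbendazole and 168 ± 74.5 FPKM with DMSO (SD, n = 3 each). The spread of their controls came from DMSO 11, and without it their control means were 225 and 126 FPKM. SQSTM1 was at 89.3 ± 6.97 FPKM with fenbendazole and 128 ± 49.5 FPKM with DMSO (SD, n = 3 each). MAP1LC3B was at 88.5 ± 4.02 FPKM with fenbendazole and 78.9 ± 4.25 FPKM with DMSO (SD, n = 3 each). The lowest level was that of ATG4A, at 2.38 ± 0.342 FPKM with fenbendazole and 2.5 ± 0.539 FPKM with DMSO (SD, n = 3 each). Among the genes of the ATG12 complex, ATG12 itself was at 58.9 ± 3.61 FPKM with fenbendazole and 30.2 ± 8.42 FPKM with DMSO (SD, n = 3 each). ATG5 was at 21.8 ± 3.53 FPKM with fenbendazole and 13.5 ± 3.48 FPKM with DMSO (SD, n = 3 each). ATG16L1 was at 14.6 ± 0.796 FPKM with fenbendazole and 14.1 ± 2.05 FPKM with DMSO (SD, n = 3 each).

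Of 185 other genes of these pathways, 175 were tested (TFEC, CTSW, GALC, ACP5, ATG9B, MAP1LC3C, MAP1LC3B2, ATP6V0A4, ATP6V0D2 and ATP6V1G2 did not pass the low-count filter), and 2 rose and 2 fell, 2.29% against 4.03% of all genes. Limma-voom with quality weights called 39 of them, and 26.4% of all genes. The strongest was DEPTOR, an inhibitory subunit of mTOR complexes, in a list of 34 genes of mTORC1, the Rag proteins, folliculin and AMPK. DEPTOR had 31.2, 29.4 and 29.6 CPM in fenbendazole 7, 8 and 9, against 96, 80.5 and 84.1 CPM in DMSO 10, 11 and 12. The groups were far apart, and DMSO 11 was the lowest control by a small margin. DEPTOR fell, with a log2 fold change of -1.53 ± 0.135 (SE, adjusted p = 0.00144), stayed past the threshold whichever library was left out, and had a range of adjusted p over other settings of 2.2e-17 to 0.0246. RHEB, the small GTPase that activates mTORC1, had 77.3, 84.4 and 81.9 CPM in fenbendazole 7, 8 and 9, against 55.8, 47 and 53.6 CPM in DMSO 10, 11 and 12. All 3 treated libraries exceeded the controls, and RHEB rose by 0.64 ± 0.13 (adjusted p = 0.0388). That call was lost without DMSO 10 (0.101), DMSO 12 (0.0734) and fenbendazole 7, 8 and 9 (0.179, 0.21 and 0.208), among other settings. It held without DMSO 11 at 0.58 (range of adjusted p over other settings 0.000257 to 0.96). RHEB passed the threshold in 9 of 17 other settings. RRAGA, a Rag GTPase that brings mTORC1 to the lysosome, had -0.73 ± 0.18 as its log2 fold change (adjusted p = 0.0733), and without DMSO 11 it fell by 0.56. The median of 33 tested genes of this list was -0.27, and without DMSO 11 it was -0.16, against -0.058 and -0.0073 for all genes. Without DMSO 11 the list had 2 rises (6.06%, against 13.1% of all genes) and 3 falls (9.09%, against 9.23%), and 15.2% of it was called, against 22.3% of all genes.

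Of 29 other genes of the lysosomal membrane 1 fell. HGSNAT, an acetyltransferase of heparan sulfate breakdown, had 92, 90.6 and 85.2 CPM in fenbendazole 7, 8 and 9, against 124, 141 and 127 CPM in DMSO 10, 11 and 12. Groups did not overlap, and the log2 fold change was -0.55 ± 0.119 (SE, adjusted p = 0.0484). The call was lost without each of DMSO 10 (0.12), DMSO 12 (0.0828) and fenbendazole 7, 8 and 9 (0.234, 0.232 and 0.264). It was also lost with no low-count filter (0.0812), in limma-voom (0.0516) and in edgeR's test against a 1.5-fold change. Limma on log2 of FPKM plus 1 or 0.1 lost it as well (0.0614 and 0.0606). Without DMSO 11 the log2 fold change was -0.49 ± 0.0728 (range of adjusted p over other settings 0.000287 to 1). ABCD4, a transporter of vitamin B12, and MFSD1, a lysosomal carrier, had log2 fold changes of -0.55 ± 0.165 and -0.50 ± 0.165, short of the threshold. Each passed it in 3 of 17 other settings, ABCD4 at -0.39 without DMSO 11 among them. The list had a median of -0.39, and without DMSO 11 one of -0.17, against -0.058 and -0.0073 for all genes. Without DMSO 11 it had 1 rise (3.45%, against 13.1% of all genes) and 6 falls (20.7%, against 9.23%).

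Among 39 tested hydrolases outside the 45 genes, 0 passed the threshold with all libraries in edgeR. In that fit 7 had an unadjusted p under 0.05, a count with no background share beside it. DESeq2 called FUCA1 and SGSH and limma-voom 0. The smallest p belonged to FUCA1, a fucosidase, with 12.2, 14.9 and 13.9 CPM in fenbendazole 7, 8 and 9, against 22.6, 23.3 and 20.9 CPM in DMSO 10, 11 and 12. Next came SGSH, a sulfatase of heparan sulfate, with 16.6, 15.7 and 10.8 CPM in fenbendazole 7, 8 and 9, against 25.4, 52 and 26.6 CPM in DMSO 10, 11 and 12, and CTSO, a cathepsin, with 9.93, 10.2 and 12.1 CPM in fenbendazole 7, 8 and 9, against 20.3, 13 and 17.6 CPM in DMSO 10, 11 and 12. In all 3 genes each treated library was below each control. Their log2 fold changes were -0.70 ± 0.168, -1.28 ± 0.325 and -0.66 ± 0.223, with adjusted p of 0.0648, 0.0807 and 0.153. Without DMSO 11, 6 genes of the list fell (15.4%, against 9.23% of all genes). These 3 were among them, as were ASAH1, a ceramidase, and CTSF, another cathepsin. In that fit 1 gene rose (2.56%, against 13.1%), and 17.9% of the list was called, against 22.3% of all genes.

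The V-ATPase, which acidifies the lysosome, gave 0 calls among 20 tested subunits in edgeR, DESeq2 and limma-voom and 3 unadjusted p under 0.05 in edgeR, with a median of -0.088 and, without DMSO 11, 0.036. ATP6V1D and ATP6V0A2 had log2 fold changes of 0.48 ± 0.16 and 0.45 ± 0.15, and ATP6V1A one of -0.33 ± 0.119. Without DMSO 11 the first pair rose and ATP6V1A fell, 15% of the list against 22.3% of all genes. Of 15 sorting and HOPS genes AP3S1 was the sole call with all libraries. VPS11 and VPS41, tethers of the lysosome, had log2 fold changes of -0.40 and -0.32. Without DMSO 11 that list had 2 rises (13.3%, against 13.1% of all genes) and 3 falls (20%, against 9.23%). Among 23 tested genes of the remaining machinery there were 0 calls in edgeR, DESeq2 and limma-voom and 3 unadjusted p under 0.05 in edgeR. PIK3R4, a subunit of the lipid kinase, had a log2 fold change of 0.45 ± 0.144 and ATG4C, an ATG8 protease, one of 0.62 ± 0.246. MAP1LC3A, an ATG8 gene, had one of -1.66 ± 0.597, at a mean of 0.484 CPM with fenbendazole and 1.51 CPM with DMSO. At this low level MAP1LC3A was tested in 12 of 17 other settings, and the fit without DMSO 11 was not among them. Without DMSO 11, 2 genes of this list rose (8.7%, against 13.1% of all genes), PIK3R4 by 0.36, and 1 fell (4.35%, against 9.23%). Of 16 other receptors 0 passed the threshold in edgeR, DESeq2 or limma-voom, 1 (BNIP3) had an unadjusted p under 0.05 in edgeR, and without DMSO 11 0 rose and 6 fell, namely NCOA4, WDFY3, BNIP3, BNIP3L, RETREG1 and RTN3. That is 37.5% of the 16 lower, against 9.23% of all genes lower and 13.1% higher in that fit. BNIP3, a mitochondrial receptor, had 83.9, 93.4 and 96.8 CPM in fenbendazole 7, 8 and 9, against 114, 109.7 and 125 CPM in DMSO 10, 11 and 12, without overlap, and had -0.35 ± 0.124 as its log2 fold change (adjusted p = 0.172). WDFY3 and RTN3 had log2 fold changes of -0.28 and -0.22 with all libraries.

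**Figure D5:**
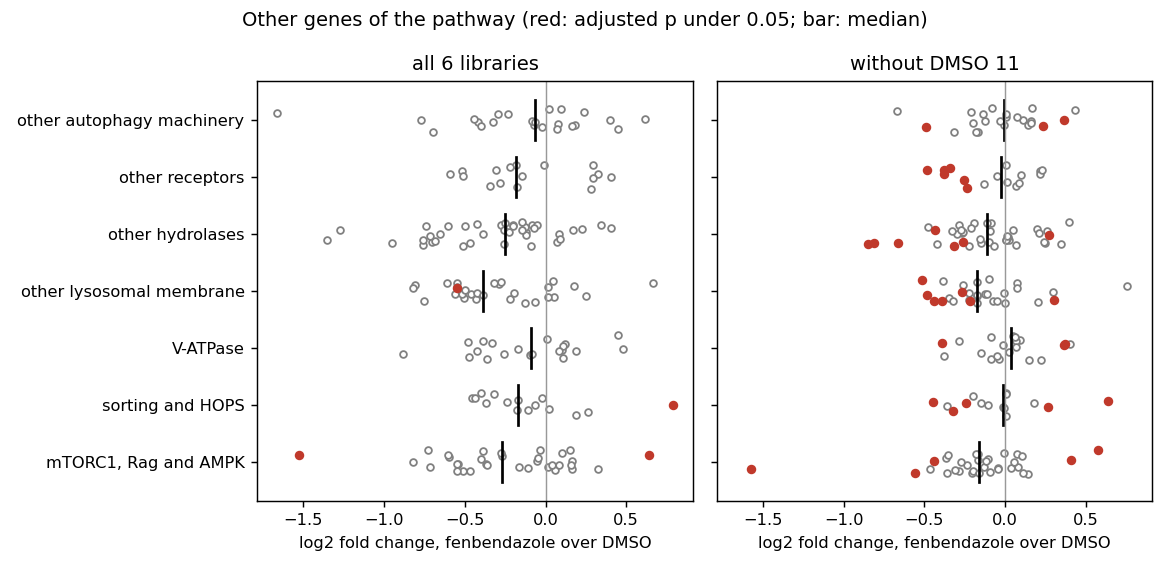
Each point is a gene outside the 45, placed by list on the vertical axis and by its log2 fold change of fenbendazole over DMSO on the horizontal axis, with all 6 libraries in the left panel and without DMSO 11 in the right panel. Red points passed an adjusted p of 0.05 and bars are medians. The left panel holds 4 red points, DEPTOR, RHEB, AP3S1 and HGSNAT.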

How the data were processed

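The deposited table holds raw read counts per gene, per the file headers, and FPKM values that the authors computed for the same 6 libraries. The submitters' processing notes name HISAT2 2.1.0, CASAVA 1.8, edgeR and StringTie 1.3.4b, and the build GRCh38. A counting program or strand setting was not given in the sources used here. Replicate pairs differed by more than sampling noise (the lowest chi-square over its degrees of freedom was 5.34).

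Counts of all genes were tested with edgeR 4.0.16 in R 4.3.3 (TMM scaling, edgeR's own low-count filter, robust quasi-likelihood F test, Benjamini-Hochberg adjusted p of 0.05). Calls given as edgeR with all libraries are from this fit, without GC and length offsets. SE were derived from the F statistic. CPM are on the TMM scale, and 3 counts in a library were 0.136 to 0.228 CPM. Overlapping genes were those with a mean of at least 10 counts. The members and lists were chosen with earlier results of these data known. Named in full were called members, up to 10 with the smallest p without DMSO 11, 12 set members, and 3 genes per pathway list. GC content and length came from GENCODE v29 and covered 97.8% of tested genes. Promoters came from RefSeq. Some genes of the wider lists are not reported here by name. Other settings were upper-quartile scaling, median-of-ratios scaling, a 1 CPM filter, no low-count filter, DESeq2 1.42.0, limma-voom (limma 3.58.1) with and without quality weights, leaving out each library, GC and length offsets, limma on log2 of FPKM plus 1 or 0.1 for genes with a mean of at least 1 FPKM, an adjusted p of 0.01 and a test against a 1.5-fold change. The fit was tested on simulated counts. There it recovered 1 of 65 changes of 1.5-fold, 13 of 64 of 2-fold and 45 of 66 of 4-fold. It called 7 of 16679 unchanged genes. A gene that was not called may therefore still have changed by such amounts. Python 3.11.15 and matplotlib 3.10.9 drew the figures.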

Additional observations from a re-analysis of the deposited data

How the results depend on the processing

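No paired analysis was possible because fenbendazole and DMSO libraries carry different numbers. The main fit called 700 of 17363 genes (4.03%, 540 higher and 160 lower) and 3 of the 45 (6.67%, 2 higher and 1 lower). DESeq2, run on 39099 genes, called 1697 (4.34%, 998 and 699) and 6 of the 45 (13.3%, 3 and 3). Quality weights called 4587 (26.4%, 2434 and 2153) and 17 of the 45 (37.8%, 6 and 11). GC and length offsets called 3537 (20.4%, 1925 and 1612) and 16 of the 45 (35.6%, 5 and 11). An adjusted p of 0.01 left 210 (193 and 17) and 0 of the 45, and edgeR's test against a 1.5-fold change 214 (200 and 14) and 0. Of the 45, upper-quartile scaling called 2 (1 and 1), no filter 1 (1 and 0), limma-voom 2 (2 and 0) and each FPKM fit 1 (0 and 1). With 1 library left out, calls over all genes numbered 147 to 3946 (139 to 2313 higher, 8 to 1633 lower), with 0 to 15 of the 45, 0 to 6 higher and 0 to 9 lower. Without DMSO 12 ATG12 alone was called.

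Among the 18 of the 45 genes described in full, 4 turned sign under at least 1 setting, and none of these 4 was called under any. The 9 of the 45 that turned sign without DMSO 11 are named in the report, and the other genes of the 45 were not counted here. Without fenbendazole 7 BECN1 was at -0.0064. BECN1 was at -0.061 with upper-quartile scaling, -0.0068 with no filter, -0.085 with GC offsets and -0.081 and -0.083 on FPKM plus 1 and 0.1, and from -0.020 to 0.069 without 1 library. TFE3 was at 0.060 with quality weights and 0.16 with GC offsets, LAMP1 at 0.066 and CTSB at 0.050 with quality weights. Without 1 library TFE3 ran from -0.26 to 0.11, LAMP1 from -0.26 to 0.0997 and CTSB from -0.36 to 0.090. Leaving out any library but DMSO 11 lowered the count of calls, and leaving out DMSO 11 raised it. For all of these shifts the cause was not tested. Depth limits the lowest genes, such as ATG4A, ATG10 and MCOLN1, more than the others.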
